A study of Mus musculus with 16 samples.

Results

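The mouse *Gimap* genes (GTPases of immunity-associated proteins) of the cluster on chromosome 6 are described here across double positive (DP) and CD8 thymocytes with and without a deletion in *Tox4*. The 8 members, *Gimap1*, *Gimap3*, *Gimap4*, *Gimap5*, *Gimap6*, *Gimap7*, *Gimap8* and *Gimap9*, were taken by symbol from count tables of 24984 genes for DP cells and 24974 genes for CD8 cells. Both tables held all 8, and no other row had a symbol starting with Gimap. The family was selected on values that include these same contrasts, cKO against control in each cell type and CD8 against DP cells, which were known when it was proposed, so the members' values in these contrasts are a description and no p-value is given for them.

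*Gimap* genes encode small GTP-binding proteins made mainly in lymphocytes, several of which sit on membranes of the endoplasmic reticulum, lysosomes or other organelles. They are best known for effects on lymphocyte survival: mice and rats without functional *Gimap5* lose peripheral T cells. In the thymus, DP cells carry both coreceptors and most die there, whereas single positive cells have passed selection and prepare to leave.

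Poly(A) RNA was sequenced with a strand-specific protocol in 16 samples from C57BL/6 mice aged 6 to 8 weeks, which were gender-matched littermates. Control mice carried floxed *Tox4* alleles (Tox4 F/F) without Cre and are titled WT in the labels, and cKO mice carried Tox4 F/F with Lck-Cre, in which the proximal *Lck* promoter drives Cre from the double negative stage on and exons 4 to 6 of *Tox4* are removed. No mice with Cre and unfloxed *Tox4* were sequenced, so the presence of Cre and the deletion cannot be told apart. There were 3 control and 3 cKO samples of sorted DP thymocytes and 5 control and 5 cKO samples of CD8 thymocytes sorted as positive for TCR beta and CD8. Fragments counted on genes ranged from 14583336 to 25981683 per DP sample and from 8514135 to 13530783 per CD8 sample.

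*Tox4* mRNA over the whole gene, in CPM (counts scaled to library size by TMM over all 16 samples), was 148.7, 165.0 and 173 in the DP control samples and 128, 132 and 129 in the DP cKO samples. Every DP cKO sample lay below every DP control sample, with a log2 fold change of -0.32 (SE 0.11, n = 3 in each group, edgeR adjusted p = 0.381). In CD8 cells *Tox4* was 195, 193, 205, 208 and 184 CPM in control samples 1 to 5 and 172, 190.3, 179, 239 and 168 CPM in cKO samples 1 to 5. The library labelled cKO 4 was above all 5 CD8 controls, and the groups overlapped (log2 fold change -0.06, SE 0.10, edgeR adjusted p = 0.979). Counts over the whole gene include exons outside the floxed stretch, and the tables give no counts by exon.

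The cell type labels were checked against markers. *Cd4*, the coreceptor of DP and CD4 cells, had a mean of 1736 CPM in DP control and 29.5 CPM in CD8 control samples, while *Cd8a* had 2072 and 1559 CPM. *Rag1*, the recombinase subunit active in DP cells, had a mean of 8060 CPM in DP control and 52.8 CPM in CD8 control samples. CD8 samples numbered 1 and 2 of both genotypes stood apart, with 60.2 to 78.4 CPM of *Cd4* against 3.69 to 10.5 in those numbered 3 to 5, 78.6 to 123 CPM of *Rag1* against 12.2 to 35.0, and 4.96 to 9.24 CPM of *Rag2* against 0.379 to 1.13. CD8 control 1 also had 17741 genes with a count, against 13708 to 14194 in the other CD8 controls. The members' changes in CD8 cKO cells are therefore also given from subsets of these libraries, chosen after seeing the data.

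The members span chr6:48647234-48770851 (mm10), 123618 bases, in the order *Gimap8*, *Gimap9*, *Gimap4*, *Gimap6*, *Gimap7*, *Gimap1*, *Gimap5* and *Gimap3*. *Gimap6* and *Gimap3* lie on the minus strand and the other 6 on the plus strand. Between their longest coding sequences in the GENCODE annotation, *Gimap3* and *Gimap5* were the most alike of the 28 pairs, with 88.2% of the bases of the shorter sequence identical. The pair of *Gimap7* and *Gimap9* followed with 64.9%. The lowest pair was at 39.8% and the median at 51.4%. Likeness this close bears on counting, because a fragment that fits both genes cannot be assigned. Of the distinct stretches of 50 bases in GENCODE transcripts of *Gimap3*, 7.52% (190 of 2528) also occurred in *Gimap5*, and at 100 bases 1.65% (41 of 2478) did. *Gimap4*, *Gimap8* and *Gimap9* shared no stretch of 50 bases with any other gene. With any other gene *Gimap3* shared 8.15% (206 of 2528) at 50 bases. *Gimap1*, *Gimap3*, *Gimap5* and *Gimap7* shared stretches with Gm28053, an overlapping gene model, and *Gimap3* also with Gm38409. The read length is not stated in the labels.

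*Gimap3* and *Gimap4* moved furthest in DP cells, and *Gimap5*, the closest relative of *Gimap3*, did not, so the bases before the start sites of these 3 genes are shown, 5′ to 3′ on the strand of the gene, from RefSeq (GRCm38.p6, the assembly of mm10). All 8 members had an entry, with 9 start sites in all because *Gimap8* has an additional site. The *Gimap3* stretch is chr6:48770852-48771101 on the minus strand, the *Gimap4* stretch chr6:48684328-48684548 on the plus strand, shortened by 29 bases that are exon in another transcript, and the *Gimap5* stretch chr6:48745947-48746196 on the plus strand.
Gimap3: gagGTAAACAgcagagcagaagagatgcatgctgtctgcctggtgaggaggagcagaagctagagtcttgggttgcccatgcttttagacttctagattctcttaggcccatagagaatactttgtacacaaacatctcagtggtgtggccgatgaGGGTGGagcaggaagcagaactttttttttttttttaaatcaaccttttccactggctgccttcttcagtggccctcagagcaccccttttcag
Gimap4: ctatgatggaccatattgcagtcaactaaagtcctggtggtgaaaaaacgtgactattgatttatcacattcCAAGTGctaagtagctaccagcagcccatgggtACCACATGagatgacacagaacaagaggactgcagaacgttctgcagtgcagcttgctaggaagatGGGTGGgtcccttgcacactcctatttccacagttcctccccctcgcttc
Gimap5: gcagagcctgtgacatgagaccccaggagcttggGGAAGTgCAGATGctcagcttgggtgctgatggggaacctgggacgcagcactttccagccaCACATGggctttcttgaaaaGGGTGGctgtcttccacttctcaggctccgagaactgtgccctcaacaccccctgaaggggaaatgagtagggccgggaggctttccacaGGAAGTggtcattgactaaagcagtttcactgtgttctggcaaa
Capitals mark matches on either strand to short motifs known from factors of T cells. The motifs searched were GGAAGT for ETS factors, TGTGGT for RUNX factors (read as ACCACA on the opposite strand), CTTTGA for TCF and LEF factors, CCACCC for KLF factors (GGGTGG on the opposite strand), GTAAACA for FOXO factors, AGATAA for factors of the GATA family, CANNTG as the E box and TATAAA for the TATA box. GTAAACA was present before *Gimap3* alone among the members and in 3.17% of all 32536 windows of 250 bases. CCACCC stood before *Gimap3*, *Gimap4*, *Gimap5*, *Gimap8* and *Gimap9* and in 28.1% of all windows. In *Gimap4* the RUNX match overlaps an E box match, and TGTGGT was found before *Gimap1*, *Gimap4* and *Gimap7* and in 14% of all windows. GGAAGT stood before *Gimap5* and *Gimap6* (19.8% of all windows), CANNTG before every member but *Gimap1* and *Gimap3* (66.2%), and TATAAA before *Gimap6* (12.3%). No member's window held CTTTGA (13.9%) or AGATAA (9.97%). A match is a description of letters, and no motif searched was found before both *Gimap3* and *Gimap4* without also being found before *Gimap5*.

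Levels of different genes were compared in TPM, which divides counts by exonic length before scaling each sample to the same total. *Gimap6*, which is known to take part in autophagy, had the highest mean in all 4 groups, from 318 ± 42.4 TPM (SD, n = 3) in DP cKO to 699 ± 155 TPM (SD, n = 5) in CD8 control samples. In DP control samples *Gimap6* (442 ± 78.3 TPM, SD, n = 3) was followed by *Gimap9* (187 ± 43.8) and *Gimap1* (166 ± 3.13), whose ranges overlapped, then by *Gimap8* (94.4 ± 20.1). *Gimap4* (42.9 ± 12.4 TPM), *Gimap3* (35.0 ± 7.74) and *Gimap5* (30.3 ± 1.67) came next, each overlapping the next, and *Gimap7* (16.3 ± 1.61) was lowest. In CD8 control samples the order differed: *Gimap3* (604 ± 94.3 TPM, SD, n = 5) and *Gimap4* (527 ± 32.6) came after *Gimap6*, with overlapping ranges along these 3. *Gimap8* (191 ± 21.5 TPM), *Gimap9* (150.0 ± 16.1), *Gimap5* (94.6 ± 6.01), *Gimap1* (76.6 ± 10.1) and *Gimap7* (39.3 ± 2.35) followed. Ranges overlapped between *Gimap8* and *Gimap9* and between *Gimap5* and *Gimap1*.

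The family's summed level was 1015 ± 156 TPM (SD, n = 3) in DP control, 768 ± 101 (n = 3) in DP cKO, 2381 ± 151 (n = 5) in CD8 control and 1941 ± 140 (n = 5) in CD8 cKO samples. No DP cKO sample reached the lowest DP control (highest 883 against lowest 907 TPM), and no CD8 cKO sample reached the lowest CD8 control (highest 2078 against lowest 2123 TPM). The mix differed most between cell types: *Gimap3* and *Gimap4* held 3.45% and 4.18% of the summed TPM in DP control, and 25.5% and 22.1% in CD8 control samples. In DP cKO samples their shares were 1.19% and 1.5%, and in CD8 cKO samples 23.4% and 19.6%. *Gimap1* went the other way between cell types, from 16.7% in DP control to 3.22% in CD8 control samples.

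**Figure D1:**
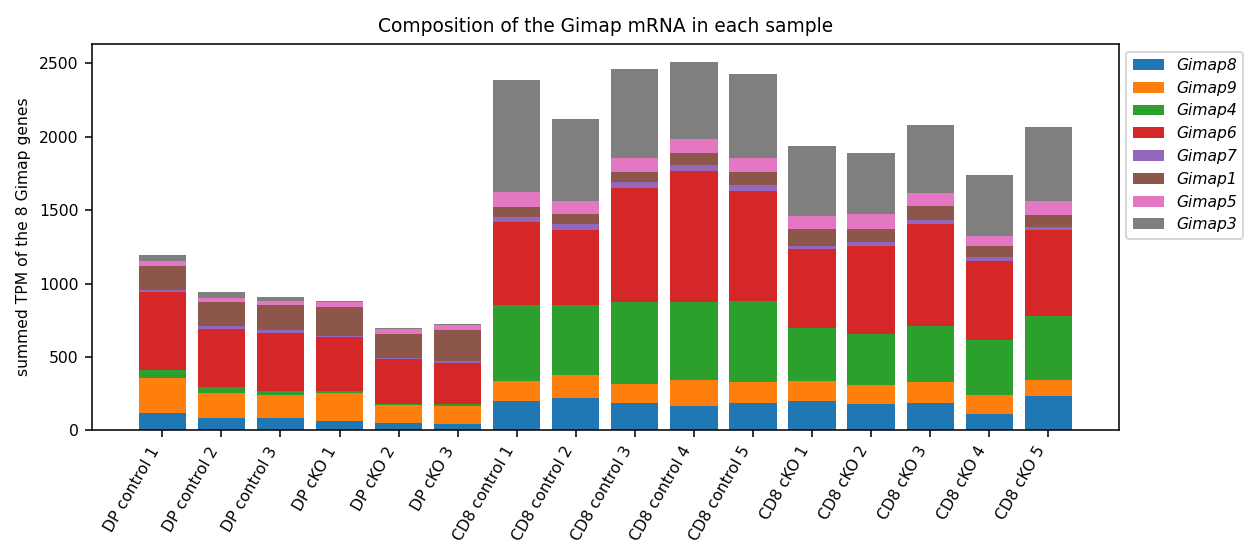
Summed TPM of the 8 Gimap genes in each of the 16 samples, with bars stacked by gene in chromosome order. The segments of Gimap3 and Gimap4 are thin in DP samples and fill much of each CD8 bar.

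In DP cells the question is which members differ in mRNA when *Tox4* is deleted. *Gimap3*, a close relative of *Gimap5* on the endoplasmic reticulum, was at 26.9, 29.5 and 19.2 CPM in DP control samples 1 to 3 and at 7.37, 5.77 and 7.12 CPM in cKO samples 1 to 3. *Gimap4*, reported to speed the death of T cells once apoptosis has begun, was at 31.6, 27.6 and 18.7 CPM in controls and at 6.87, 6.02 and 8.67 CPM in cKO samples. Every cKO sample was far below every control for both genes, and the cKO means were 26.8% and 27.7% of the control means. The log2 fold changes were -1.90 (SE 0.20) for *Gimap3* and -1.85 (SE 0.23) for *Gimap4* (n = 3 in each group). *Gimap8*, a member with several GTP-binding domains, was at 139, 109 and 102 CPM in controls and at 77.3, 63.6 and 61.0 CPM in cKO samples (log2 fold change -0.80, SE 0.15). *Gimap7* was at 6.06, 7.95 and 6.97 CPM in controls and at 4.59, 3.08 and 4.61 CPM in cKO samples (log2 fold change -0.77, SE 0.24). Both genes, and *Gimap6* (220 to 275 CPM in controls, 164 to 196 in cKO samples, log2 fold change -0.44, SE 0.13), were lower in all cKO samples without overlap.

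*Gimap9*, *Gimap1* and *Gimap5* overlapped between the DP groups. *Gimap9* ranged from 75.4 to 105 CPM in control and from 54.9 to 89.4 CPM in cKO samples (log2 fold change -0.34, SE 0.20), and it was lower in cKO in all 3 pairs of equal number (log2 ratios -0.53 to -0.23). In the 6 fits that each left out 1 DP library its log2 fold change lay between -0.57 and -0.18. *Gimap1*, needed for the survival of mature lymphocytes, had 79.6 to 88.0 CPM in control and 82.4 to 119.9 CPM in cKO samples (log2 fold change 0.24, SE 0.14, and 0.11 to 0.34 in the same 6 fits). *Gimap5* had 19.3 to 20.1 CPM in control and 19.6 to 23.8 CPM in cKO samples (log2 fold change 0.14, SE 0.13), and it was higher in cKO in all 3 pairs (0.02 to 0.24). The ratio of *Gimap3* to *Gimap5* in TPM was 1.16 ± 0.264 in DP control and 0.280 ± 0.0196 in DP cKO samples (SD, n = 3), whereas the ratio of *Gimap3* to *Gimap4* was 0.83 ± 0.0986 and 0.802 ± 0.106.

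By the rule used throughout (edgeR adjusted p below 0.05, at least a 1.5-fold change, mean TPM not below 1), 2 of the 8 members, *Gimap3* and *Gimap4*, were called lower in DP cKO cells, where 0.0596% of all genes tested were called lower. Groups lay apart without overlap, with cKO lower, for 5 members and for 7.20% of all genes. With the replicate numbers as a block *Gimap8* was called as well (log2 fold change -0.79, SE 0.09), with 0.485% of all genes called lower. It was also called with no filter on low counts (-0.79, SE 0.15), where 0.172% of all genes were called lower, and with the DP samples numbered 2 and 3 only (-0.77, SE 0.16), a subset chosen after seeing the data, where 0.220% were. The calls changed when single libraries were left out: edgeR called 0 members without DP control 2, without DP cKO 2 or without DP cKO 3, and only *Gimap3* without DP cKO 1. Of all genes tested it called 0 of 11883, 0 of 11986 and 0 of 11926 lower in the fits with 0 members, and 1 of 11952 without DP cKO 1. Called higher were 0 genes without DP control 2, 1 without DP cKO 2, 1 without DP cKO 3 and 6 without DP cKO 1. In the 6 fits that each left out 1 DP library, the log2 fold change stayed between -2.07 and -1.77 for *Gimap3* and between -2.05 and -1.69 for *Gimap4*. In the fit of all DP samples 5 members and 9.18% of all genes had an unadjusted p under 0.05, and DESeq2 called 3 members, *Gimap3*, *Gimap4* and *Gimap8*, and 0.579% of all genes lower. Because this contrast was known when the family was proposed, nothing is read from these shares.

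**Figure D2:**
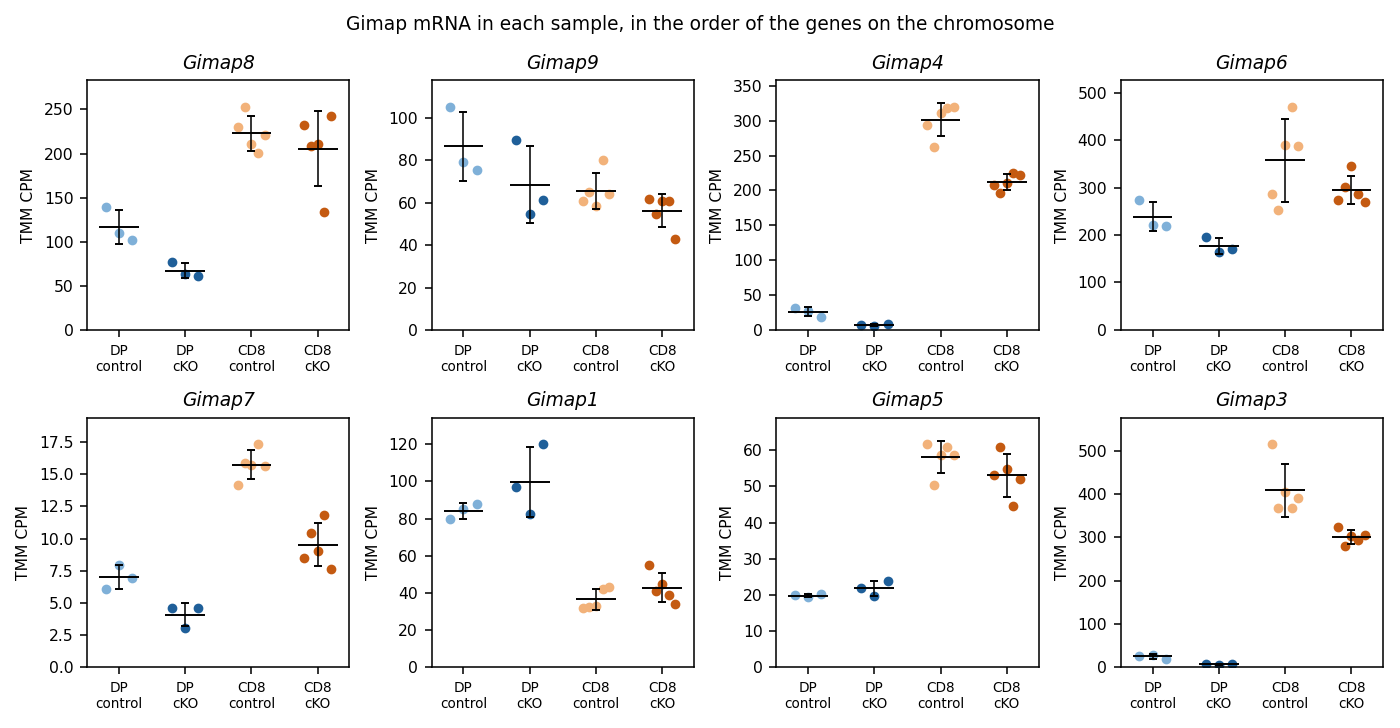
TMM-scaled CPM of each Gimap gene in each sample, with points for samples, horizontal lines for group means and bars for SD (n = 3 in DP groups, n = 5 in CD8 groups). Gimap3 and Gimap4 are low in DP samples, lowest in DP cKO, and high in CD8 samples.

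Markers of mature cells were read beside these genes. Of 16 genes of a mature single positive list, 15 had a negative log2 fold change in DP cKO cells, with a median of -0.50 against -0.0011 over all genes tested. The list's summed level was 1666, 1526 and 1521 CPM in DP control samples 1 to 3 and 1373, 1272 and 1299 CPM in cKO samples 1 to 3, without overlap. Its most abundant gene by TPM, *Dgka*, a kinase that damps T cell receptor signals, had a log2 fold change of -0.28 (SE 0.10, edgeR adjusted p = 0.396). edgeR called 0 of the 16, with 9 at an unadjusted p under 0.05. DESeq2 called 5, and the replicate block called 6: *Bcl2* (-0.67, SE 0.10), *Il7r* (-1.0, SE 0.15), *Ccr7* (-1.03, SE 0.17), *Cd69* (-0.71, SE 0.12), *Slfn1* (-1.48, SE 0.26) and *Samhd1* (-0.90, SE 0.13). No gene of the list was at 0 in all samples. *Slfn1*, a gene of quiescent T cells, had a log2 fold change of -1.5 (SE 0.29, edgeR adjusted p = 0.124) and the survival gene *Bcl2* one of -0.67 (SE 0.14, edgeR adjusted p = 0.129). The part of these markers in the *Gimap* values was not tested. In bulk RNA, fewer cells of a type and less RNA per cell cannot be told apart. Of the 10 genes of the DP list, edgeR, DESeq2 and the replicate block called 0 in DP cKO cells, with *Cd8a* at an unadjusted p under 0.05 (log2 fold change -0.45, SE 0.14). The most abundant gene of the DP list in DP cells, *Rag1*, had a log2 fold change of -0.24 (SE 0.14, edgeR adjusted p = 0.661), and *Cd8b1*, the most abundant over all 16 samples, one of -0.10 (SE 0.11, edgeR adjusted p = 0.853).

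**Figure D3:**
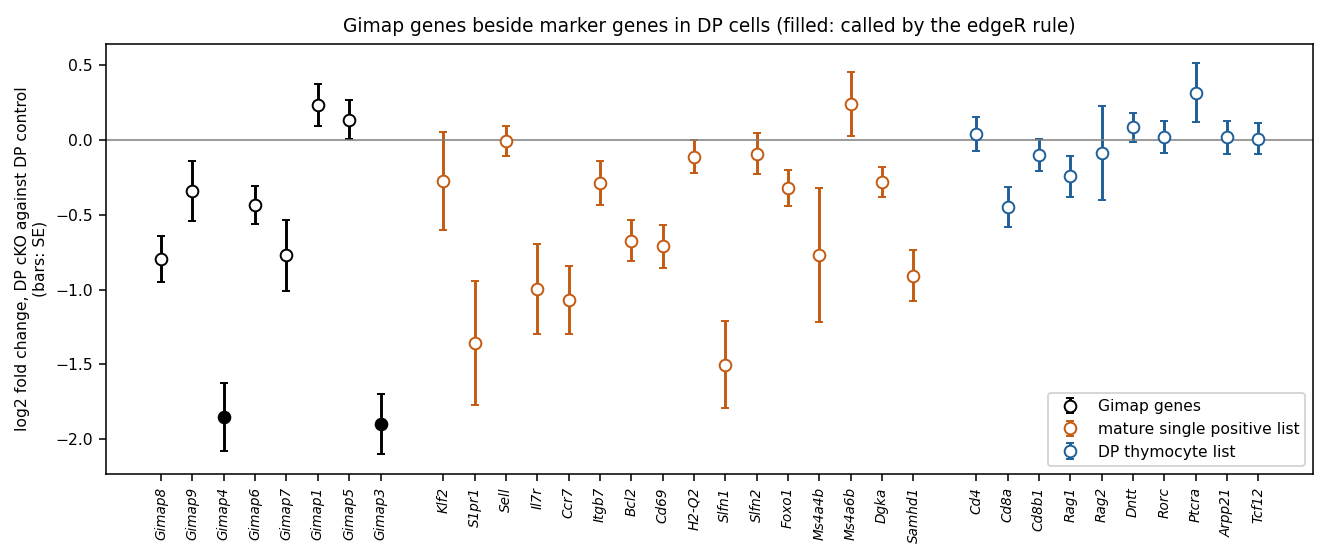
Log2 fold change of DP cKO against DP control for the 8 Gimap genes, the 16 genes of the mature single positive list and the 10 genes of the DP list. Bars are SE (n = 3 in each group) and filled points passed the edgeR rule. Gimap3 and Gimap4 are the only filled points, and 15 of the 16 mature genes lie below 0.

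In CD8 cells the same question was asked with 5 samples of each genotype. *Gimap3* was at 515, 368, 404, 367 and 391 CPM in control samples 1 to 5 and at 324, 280.5, 302, 293 and 305 CPM in cKO samples 1 to 5. *Gimap4* was at 294, 263, 312, 319 and 319.7 CPM in controls and at 207, 197, 211, 226 and 222 CPM in cKO samples. *Gimap7*, whose product is known to pair with other family members, was at 14.2, 15.9, 15.7, 17.3 and 15.6 CPM in controls and at 8.53, 10.5, 9.05, 11.9 and 7.63 CPM in cKO samples. All cKO samples were below all controls for these 3 genes, with cKO means at 73.5%, 70.6% and 60.4% of the control means. The log2 fold changes were -0.45 (SE 0.11) for *Gimap3*, -0.51 (SE 0.08) for *Gimap4* and -0.73 (SE 0.14) for *Gimap7* (n = 5 in each group). With the CD8 samples numbered 3 to 5 alone *Gimap3* was at -0.36 (SE 0.09) and *Gimap4* at -0.52 (SE 0.08), and with those numbered 1 and 2 alone they were at -0.57 (SE 0.17) and -0.48 (SE 0.12).

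The other 5 members overlapped between the CD8 groups. *Gimap6* ranged from 254 to 469.8 CPM in controls and from 269.9 to 345 CPM in cKO samples (log2 fold change -0.28, SE 0.14), and *Gimap9* had a log2 fold change of -0.23 (SE 0.12). *Gimap5* had 50.4 to 61.6 CPM in controls and 44.5 to 60.8 CPM in cKO samples (log2 fold change -0.13, SE 0.10). *Gimap8* was at 201 to 253 CPM in controls and at 134 to 243 CPM in cKO samples, where the library labelled cKO 4 was lowest (log2 fold change -0.12, SE 0.14). *Gimap1* had a log2 fold change of 0.23 (SE 0.14), which was 0.0024 with the samples numbered 3 to 5 alone and 0.56 with those numbered 1 and 2 alone, and *Gimap9* was at -0.29 and -0.13 in these subsets. Leaving out CD8 control 1 and CD8 cKO 4 together turned *Gimap8* to 0.03, and with the CD8 samples numbered 1 and 2 alone *Gimap5* was at 0.0058 and *Gimap6* at 0.07, against -0.23 and -0.46 with those numbered 3 to 5, so no direction is given for these 3 genes.

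edgeR called 0 of the 8 members in CD8 cKO cells, with 3 at an unadjusted p under 0.05, and DESeq2 called 1, *Gimap7*, lower. Over all genes tested, edgeR called 0.0980% in either direction, 5.60% had an unadjusted p under 0.05, and DESeq2 called 0.107% lower. Without CD8 cKO 4 edgeR called *Gimap7* (log2 fold change -0.82, SE 0.14) and 2 of all 11386 genes lower, and without both CD8 control 1 and CD8 cKO 4 it called *Gimap7* (-0.84, SE 0.14) and 4 of 11289 genes lower. edgeR called 0 members in CD8 samples numbered 3 to 5 and 0 in those numbered 1 and 2, where *Gimap7* was at -0.76 (SE 0.19) and -0.68 (SE 0.24) and where 5 of all 11089 and 3 of all 11580 genes were called in either direction. By the adjusted p alone *Gimap4* passed, as did 0.0178% of all genes on the lower side, but its change was under 1.5-fold. It did not pass by the adjusted p alone without CD8 control 3, 4 or 5 or without CD8 cKO 1, 2 or 3 (log2 fold change between -0.55 and -0.48 over all 10 fits that each left out 1 library). Without overlap and lower in cKO were 3 members and 0.686% of all genes, and nothing is read from these shares since the contrast was known.

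**Figure D4:**
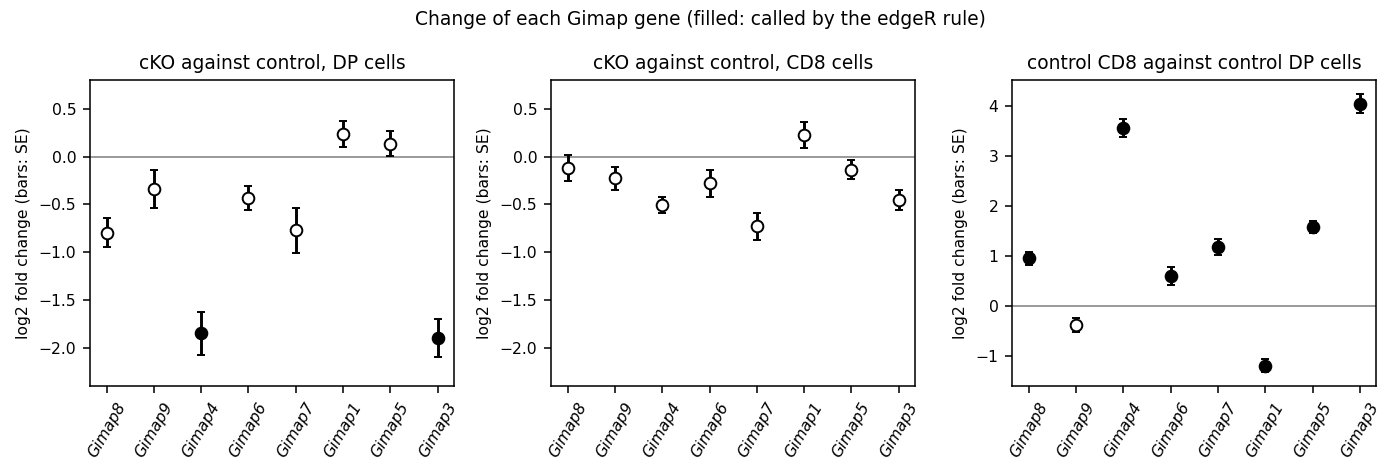
Log2 fold change of each Gimap gene in chromosome order, for cKO against control in DP cells (n = 3 each) and CD8 cells (n = 5 each) and for control CD8 (n = 5) against control DP (n = 3) cells. Bars are SE and filled points passed the edgeR rule. Gimap4 and Gimap3 have the lowest points in DP cells and the highest points in the cell type comparison.

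The changes in both cell types were compared by the interaction of genotype and cell type. The change of *Gimap3* and *Gimap4* was less negative in CD8 cells, with differences of log2 change (CD8 minus DP) of 1.44 (SE 0.20) and 1.34 (SE 0.20). edgeR called these 2 of the 8 members, and 0.107% of all genes, as higher in CD8 cells. The contrasts it is built from were known when the family was proposed, so nothing is read from this share. It called 0 without DP control 2 or without DP cKO 2 and only *Gimap3* without DP cKO 1, and with the CD8 samples numbered 3 to 5 alone it called *Gimap3* only, with *Gimap4* at 1.32 (SE 0.23). Of all genes it called 0 of 12401 and 0 of 12386 in the fits with 0 members, 1 of 12420 without DP cKO 1 and 5 of 12130 with those numbered 3 to 5. In the 16 fits that each left out 1 library the difference stayed between 1.32 and 1.6 for *Gimap3* and between 1.17 and 1.52 for *Gimap4*. In the fit of all samples the next was *Gimap8*, at 0.68 (SE 0.22), and the other 5 lay between -0.28 and 0.15. For *Gimap7*, at 0.03 (SE 0.24), the log2 fold changes of -0.77 in DP and -0.73 in CD8 cells were close in size. Cell type and count table coincide, so a difference between cell types and one between the sets of libraries cannot be told apart.

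Control CD8 against control DP samples asks how the members differ between the stages without the deletion. *Gimap3* and *Gimap4* had means of 25.2 ± 5.34 and 26.0 ± 6.64 CPM (SD, n = 3) in DP and of 409 ± 61.0 and 301 ± 23.9 CPM (SD, n = 5) in CD8 samples, 16.2 and 11.6 times as high. Their log2 fold changes were 4.04 (SE 0.19) and 3.56 (SE 0.17). *Gimap5* (1.57, SE 0.12), *Gimap7* (1.19, SE 0.16) and *Gimap8* (0.95, SE 0.12) were also higher in every CD8 control than in every DP control. *Gimap6* was higher by a log2 fold change of 0.60 (SE 0.18) with overlapping samples. *Gimap1* was lower in every CD8 control (-1.19, SE 0.13), and *Gimap9* overlapped (-0.38, SE 0.14).

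edgeR called 6 members higher and 1, *Gimap1*, lower in CD8 cells, where 22.0% of all genes were called higher and 22.3% lower. Without overlap were 5 members higher and 1 lower, and 27.2% and 29.5% of all genes. The contrast was known when the members were proposed, so nothing is read from these shares. *Gimap6* was not called without DP control 2 (0.55), DP control 3 (0.55), CD8 control 3 (0.57), CD8 control 4 (0.49) or CD8 control 5 (0.57), and it was at 0.19 (SE 0.15) with CD8 samples numbered 1 and 2 and at 0.81 (SE 0.12) with those numbered 3 to 5. This comparison and that of DP cKO against DP control share the DP control samples, so their values are given side by side and were not correlated: 4.04 and -1.90 for *Gimap3*, 3.56 and -1.85 for *Gimap4*, -1.19 and 0.24 for *Gimap1*.

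The genes around the cluster were taken by position alone. Of 15 other genes within 200 kb of the members, 8 were tested in at least 1 comparison: Sspo, *Zfp862-ps*, *Lrrc61*, *Repin1*, *Zfp775*, *AI854703*, *Tmem176b* and *Tmem176a*. In cKO against control edgeR called 0 of the 7 tested in DP cells and 0 of the 8 tested in CD8 cells, with 0 at an unadjusted p under 0.05 and 0 by DESeq2 in each. Their log2 fold changes ranged from -0.35 to 0.82 in DP and from -1.07 to 0.36 in CD8 cells. The gene next to *Gimap3*, *Tmem176b*, had -0.35 (SE 0.21, edgeR adjusted p = 0.675) in DP cells, and *AI854703*, next to *Gimap8*, had -0.23 (SE 0.46, edgeR adjusted p = 0.930). In the interaction edgeR called 0 of 8, with 1 at an unadjusted p under 0.05 and 0 by DESeq2. Between control CD8 and DP cells edgeR called *Zfp862-ps* higher (2.31, SE 0.31, adjusted p = 5.52e-05). It called *Tmem176b* (-1.53, SE 0.25, adjusted p = 0.000240), *Tmem176a* (-1.13, SE 0.27, adjusted p = 0.00332), *Zfp775* (-0.99, SE 0.25, adjusted p = 0.00475) and *Repin1* (-0.67, SE 0.22, adjusted p = 0.0223) lower. *Repin1* was not called without DP control 2, CD8 control 3, CD8 control 4 or CD8 control 5 (-0.79 to -0.55 over the 8 fits that each left out 1 library).

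Survival and autophagy genes whose products are known partners of Gimap proteins or act with them were listed next (16 genes, all tested). In DP cKO cells edgeR called 0 (3 at an unadjusted p under 0.05), and DESeq2 and the replicate block each called *Bcl2*. The median log2 fold change was -0.08 in DP and 0.02 in CD8 cells, where edgeR and DESeq2 called 0 and 2 had an unadjusted p under 0.05. *Mcl1*, an inhibitor of apoptosis and the most abundant of them by TPM over all 16 samples, had log2 fold changes of -0.35 (SE 0.12, edgeR adjusted p = 0.404) in DP and -0.27 (SE 0.10, edgeR adjusted p = 0.751) in CD8 cells. Between control CD8 and DP cells 2 were called higher and 6 lower. *Bcl2* rose by a log2 fold change of 2.70 (SE 0.12, edgeR adjusted p = 1.31e-08) and *Prkcq*, a kinase of T cell receptor signalling, by 0.84 (SE 0.09). Lower were *Bcl2l1*, the inhibitor of death that DP cells use (-2.69, SE 0.12, edgeR adjusted p = 1.65e-08), *Bad* (-1.84), *Gabarapl2* (-1.35), which encodes an autophagy protein bound by Gimap6, *Map1lc3b* (-1.02), *Gabarapl1* (-0.80) and *Bax* (-0.60). *Bax* was not called without DP control 3, CD8 control 2 or CD8 control 3 and *Gabarapl1* not without DP control 3. In the interaction *Bcl2* was called (0.79, SE 0.15, edgeR adjusted p = 0.0499), but in only 2 of the 16 fits that each left out 1 library (0.73 to 0.88).

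Other GTPase families of immunity, the guanylate-binding, Irg and Mx proteins induced by interferon, gave a comparison (17 genes, 16 tested, Gvin1 at 0 in all samples). In cKO against control edgeR and DESeq2 called 0 in DP and 0 in CD8 cells, with 1 at an unadjusted p under 0.05 in each, and medians of -0.05 and 0.0088. In the interaction edgeR and DESeq2 called 0, with 1 at an unadjusted p under 0.05. Between control CD8 and DP cells 13 were called higher and 1 lower, with a median of 2.1 against -0.01 over all genes. *Tgtp1* (5.65, SE 0.22), *Mx1* (4.89, SE 0.44), *Tgtp2* (4.74, SE 0.21) and *Iigp1* (3.57, SE 0.36) had the largest changes, and *Gbp8*, the most abundant by TPM over all 16 samples, was lower (-1.67, SE 0.12, edgeR adjusted p = 3.07e-07). The *Gimap* genes thus had a median log2 fold change of 1.07 beside 2.1 for these families, and no test of that difference was made.

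The remaining values of the marker lists follow, where the most abundant gene is that with the highest mean TPM over all 16 samples. In the mature single positive list 15 of 16 genes were called higher in control CD8 than in DP cells (median log2 fold change 3.12), led by *S1pr1* (7.76, SE 0.35), the receptor for exit from the thymus, *Klf2* (6.24, SE 0.49), the factor that switches it on, *Ms4a4b* (4.95, SE 0.36) and *Slfn1* (4.88, SE 0.18), while *H2-Q2* was lower (-3.34, SE 0.53). *Slfn2* of this list was not called without DP control 2, DP control 3, CD8 control 3, CD8 control 4 or CD8 control 5 (0.45 to 0.71 over the 8 fits). In CD8 cKO cells edgeR and DESeq2 called 0 of this list, with 3 at an unadjusted p under 0.05, and *Dgka* was at -0.44 (SE 0.11, edgeR adjusted p = 0.208). Its summed level in CD8 samples numbered 1 to 5 was 6329, 5497, 7718, 8189 and 7223 CPM in control and 5374, 5494, 7693, 8071 and 6695 CPM in cKO cells, lower in those numbered 1 and 2 than in the others. In the interaction *Samhd1* (1.02, SE 0.18) and *Bcl2* were called, *Samhd1* in 4 of the 16 fits with 1 library left out. DESeq2 called 3 of this list there, and the replicate block called 5: *Bcl2*, *Il7r*, *Ccr7*, *Slfn1* and *Samhd1*. Of all 12131 genes tested in the interaction, DESeq2 called 28 higher and 9 lower in CD8 cells, and the replicate block 30 higher and 3 lower. All 10 genes of the DP list were lower in control CD8 cells (median -4.65) and 9 were called, led by *Rag1* (-7.23, SE 0.74), *Cd4* (-5.86, SE 0.79), *Rag2* (-5.62, SE 0.65) and *Dntt* (-5.0, SE 0.38), with *Cd8b1* at -0.80 (SE 0.10). *Cd8a* was not called (-0.39, SE 0.10, edgeR adjusted p = 0.00668), as its change was under 1.5-fold. edgeR and DESeq2 called 0 of the DP list in CD8 cKO cells and 0 in the interaction, with 0 at an unadjusted p under 0.05.

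For the CD8 lineage list (6 genes, most abundant *Cd8b1*) edgeR and DESeq2 called 0 in DP and CD8 cKO cells and in the interaction, with 1, 0 and 1 at an unadjusted p under 0.05. Its summed level was 3910.3, 3390.25 and 3455 CPM in DP control and 3244, 2574 and 3009 CPM in DP cKO samples without overlap, and its part in the *Gimap* values was not tested. In control CD8 cells *Nkg7* (5.56), *Cst7* (5.08), *Runx3* (4.09) and *Xcl1* (3.26) were called higher. For the CD4 lineage list (5 genes, most abundant *Cd4*) edgeR called 0 in DP cKO cells (3 at an unadjusted p under 0.05), where DESeq2 (-1.09) and the replicate block (-1.06, SE 0.19) each called *Zbtb7b* lower. edgeR called 0 in CD8 cKO cells (1 at an unadjusted p under 0.05), where DESeq2 called *Foxp3* lower (-1.16), and 0 in the interaction (1 at an unadjusted p under 0.05, DESeq2 0). In control CD8 cells *Foxp3* (2.45) was higher and *Cd4*, *Zbtb7b* (-2.31) and *Il2ra* (-0.94) were lower, *Il2ra* not without DP control 1, CD8 control 3, CD8 control 4 or CD8 control 5. In the immature double negative list (6 genes) *Notch3*, its most abundant gene over all 16 samples, was called higher in DP cKO cells (1.01, SE 0.14, edgeR adjusted p = 0.0415), but in none of the 6 fits that each left out 1 DP library (0.92 to 1.10). Of the 5 tested there 3 were negative (median -0.05), and of 3 at an unadjusted p under 0.05 the other 2 were lower, *Kit* (-0.97, SE 0.37, edgeR adjusted p = 0.453) and *Il2ra* (-0.71, SE 0.22, edgeR adjusted p = 0.343). The list's summed level was between 140.4 and 178 CPM in DP control and between 229 and 309 CPM in DP cKO samples without overlap, with *Erg* under 1 CPM in mean, and its part in the *Gimap* values was not tested. edgeR called 0 of it in CD8 cKO cells (1 at an unadjusted p under 0.05, DESeq2 0) and 0 in the interaction (3 at an unadjusted p under 0.05, DESeq2 1), and in control CD8 cells *Kit* (3.64) was higher and *Ptcra* (-4.43), *Notch3* (-1.85) and *Il2ra* lower. Of the proliferating cell list (7 genes, most abundant *Top2a*) edgeR and DESeq2 called 0 in DP and CD8 cKO cells and in the interaction, with 0 at an unadjusted p under 0.05 in each. All 7 were positive in DP cKO cells (median log2 fold change 0.35) and 6 of 7 in CD8 cKO cells (median 0.33), and 6 were called lower in control CD8 cells, among them *Ccnb1* (-2.88), *Cdk1* (-2.23), *Ccnb2* (-2.13) and *Birc5* (-1.74).

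Markers of cells outside the gates were read in the same way. For B cells (7 genes, most abundant *Cd79b*) edgeR and DESeq2 called 0 in DP cKO cells (2 at an unadjusted p under 0.05) and 0 in CD8 cKO cells and in the interaction (0 at an unadjusted p under 0.05), and *Cd79b* was lower in control CD8 cells (-1.21). All 4 tested in DP cKO cells were negative (median log2 fold change -1.08), and their part in the *Gimap* values was not tested. For myeloid and dendritic cells (11 genes, most abundant *Cst3*) edgeR called 0 in DP cKO cells (5 at an unadjusted p under 0.05), where DESeq2 called *Lyz2* lower (-1.65), 0 in CD8 cKO cells (2 at an unadjusted p under 0.05, DESeq2 0) and 0 in the interaction (3 at an unadjusted p under 0.05, DESeq2 0). In DP cKO cells 7 of the 11 myeloid and dendritic genes were negative and 4 positive (median log2 fold change -0.80), and their part in the *Gimap* values was not tested. In control CD8 cells *Fcer1g* (1.33) and *Cd68* (0.74) were called higher and 7 lower, led by *C1qa* (-5.54), *Lyz2* (-3.94), *C1qb* (-3.77) and *Itgam* (-2.52). *Fcer1g* was not called without DP control 1, DP control 2 or DP control 3, *Tyrobp* not without DP control 2, CD8 control 2 or CD8 control 4, and *Csf1r* was called in only 2 of the 8 fits with 1 library left out, those without CD8 control 1 and without CD8 control 2. For NK cells (6 genes, most abundant *Klrd1*) edgeR and DESeq2 called 0 in DP cKO cells (1 at an unadjusted p under 0.05), where the replicate block called *Gzma* higher (0.76, SE 0.15), 0 in CD8 cKO cells (2) and 0 in the interaction (2), and in control CD8 cells *Klrd1* (4.94), *Prf1* (2.84) and *Klrb1c* (2.34) were higher and *Gzma* (-2.67) lower. Of the gamma-delta T cell list (5 genes, 4 in the tables, most abundant *Il17re*) *Cd163l1* was called higher in CD8 cKO cells (1.81, SE 0.26, edgeR adjusted p = 0.00984), with 2 at an unadjusted p under 0.05, and DESeq2 called *Sox13* higher as well (1.29). The list's summed level was 5.30 to 12.8 CPM in CD8 control and 16.6 to 33.2 CPM in CD8 cKO samples without overlap, and its part in the *Gimap* values was not tested. edgeR and DESeq2 called 0 of it in DP cKO cells (0 at an unadjusted p under 0.05) and 0 in the interaction (1 at an unadjusted p under 0.05), and in control CD8 cells *Cd163l1* (1.81) and *Sox13* (1.5, not without DP control 2) were higher and *Il17re* (-3.36) lower.

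The globin genes *Hba-a1*, *Hba-a2*, *Hbb-bs* and *Hbb-bt* were at 0 in all samples, and no gene of the erythroid list (6 genes, most abundant Alas2) was tested. For thymic epithelium (6 genes, 2 tested, most abundant *Ccl25*) edgeR and DESeq2 called 0 in DP and CD8 cKO cells and in the interaction, with 0 at an unadjusted p under 0.05, and *Epcam* was lower in control CD8 cells (-1.87). For endothelium (6 genes, 2 tested, most abundant *Pecam1*, which T cells also make) they called 0 in these comparisons, with 0 at an unadjusted p under 0.05, and *Pecam1* was higher in control CD8 cells (0.62).

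The genes most like the family were sought as those whose log2 level across all 16 samples had the highest Pearson correlation with the mean standardized profile of the 8 members, among 12123 genes. They were *Mfsd6* (r = 0.960), *Il21r* (0.953), *C920009B18Rik* (0.944), *Ifi27l2a* (0.937) and *Pfkp* (0.936), over 16 samples that share the difference between cell types. The members themselves ranged from -0.80 for *Gimap1* and -0.05 for *Gimap9* to 0.94 for *Gimap6*. With the mean of each cell type subtracted, the leading genes were *C920009B18Rik* (r = 0.843), *Kri1* (0.833), *Slfn1* (0.828), *Chd7* (0.820) and *Mfsd6* (0.820), over the same 16 samples. The difference between cKO and control samples was not subtracted and remains in this measure. With that subtraction *Gimap4* had 0.85, *Gimap6* 0.82, *Gimap3* 0.81, *Gimap9* 0.79, *Gimap7* 0.77, *Gimap8* 0.67 and *Gimap5* 0.30. *Gimap1* stood at -0.04, so it did not follow the family by either measure. Each member is itself part of the mean profile, so the members' r values are not comparable with those of genes outside the family. By Spearman rank correlation 3 of the 10 leading genes were shared in the former and 4 of 10 in the latter. These correlations are a description.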

How the data were processed

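RNA-seq of 16 samples was used. The authors filtered reads with fastp 0.13.1, aligned them with HISAT2 2.1.0 to mm10, counted fragments per gene with featureCounts 1.6.1 and deposited raw counts without normalization. Per the file headers the DP table also gives the exonic length of each gene in bases, a unit other than counts, which was used for TPM in both tables, matched by symbol. All sample columns were mapped to labels (0 left out).

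Counts scaled by TMM and filtered by filterByExpr were tested with edgeR 4.0.16 (under R 4.3.3, quasi-likelihood F), using the groups compared alone for each contrast and all 4 groups for the interaction, with Benjamini-Hochberg adjustment over all genes tested. A call needed an adjusted p below 0.05, at least a 1.5-fold change and a mean TPM of 1 or more. The SE given for an edgeR log2 fold change is its absolute value divided by the square root of the F statistic. Alternatives were RLE scaling, no filter, DESeq2 1.42.0, a replicate block, adjusted p alone, all 4 groups in 1 fit, each library left out in turn and, chosen after seeing the data, subsets without the libraries that stand apart. Sequences were read with Python 3.11.15 and Biopython 1.88, tables with pandas 2.3.3, and figures drawn with matplotlib 3.10.9.

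Pairing by replicate number was checked as the correlation across genes of deviations from group means. In DP cells the 3 pairs of equal number had r of 0.643, 0.120 and 0.290 (mean 0.351, against -0.168 for other pairs), and 2 of 6 samples were most alike to their own number. Each r was over 0.1, so the blocked value is given where it changes a call.

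The members and lists were chosen with earlier results of these data known. Named are all members, *Tox4*, every flanking gene tested, the most abundant gene of each list by mean TPM over all 16 samples, the up to 4 called genes of a list with the largest change per comparison, those at 0 for lists of other cell types, and the 5 genes most like the family in each correlation. *Cd8a*, *Il7r*, *Ccr7*, *Cd69*, *Slfn2*, *H2-Q2*, *Prkcq*, *Map1lc3b*, *Gabarapl1*, *Bax*, *Fcer1g*, *Cd68*, *Tyrobp*, *Csf1r*, *Erg*, *Rag1* in DP cells, Gm28053 and Gm38409 are named outside this rule, after their values were seen. The 15 lists are survival and autophagy partners, other immune GTPases, DP, mature single positive, CD8 lineage, CD4 lineage, immature double negative, proliferating, B, myeloid and dendritic, NK, gamma-delta T, erythroid, thymic epithelial and endothelial genes. Libraries carry no molecular identifiers, so counts are not independent molecules.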

Additional observations from a re-analysis of the deposited data

Results flagged for a closer look

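In 26 groups of 5 samples tested for a value far from the others, 3 were past the limit, where chance gives about 1 in 20 (1.3 of 26). *Gimap3* in CD8 control 1 was at 514.5 CPM, and the nearest control was at 404 CPM. *Gimap5* in CD8 control 2 was at 50.4 CPM, and the nearest control was at 58.8 CPM. CD8 control 1 had 17741 genes with a count, and the nearest control had 14194.

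In the interaction of genotype and cell type the difference of log2 change (CD8 minus DP) was 1.44 for *Gimap3* and 1.34 for *Gimap4*. The contrasts behind it were known when the family was proposed. edgeR called neither gene without DP control 2 or without DP cKO 2 and *Gimap4* not without DP cKO 1, with 0 of all 12401, 0 of all 12386 and 1 of all 12420 genes called in these fits. In all 16 fits that each left out 1 library the difference stayed between 1.32 and 1.6 for *Gimap3* and between 1.17 and 1.52 for *Gimap4*. Cell type and count table cannot be told apart.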

How the results depend on the processing

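Of 528 log2 fold changes of members under alternatives, 479 kept direction and call, 22 lost a call, 8 gained one and 19 turned sign. In CD8 cells *Gimap5* turned to 0.0058 and *Gimap6* to 0.0723 with samples numbered 1 and 2 alone, and *Gimap8* to 0.0251 without CD8 control 1 and CD8 cKO 4, subsets chosen after seeing the data. In the interaction *Gimap1* turned to 0.0018 with RLE scaling and 0.0017 with DESeq2, and with samples numbered 3 to 5 alone *Gimap6* turned to -0.0335 and *Gimap7* to -0.0053. Leaving out 1 library each, the interaction ranged from -0.13 to 0.13 for *Gimap1*, from -0.12 to 0.13 for *Gimap7* and from -0.0505 to 0.347 for *Gimap9*. Members called with 1 library left out ranged from 0 to 2 in DP cells, from 0 to 1 in CD8 cells, from 6 to 7 in control CD8 against DP cells and from 0 to 2 in the interaction. In CD8 cells 1 member was called by DESeq2, 1 by adjusted p alone and 1 without both CD8 control 1 and CD8 cKO 4. In DP cells the replicate block changed the call of *Gimap8* and of no other member. In CD8 cells 1 was called with it, *Gimap7* (-0.74, SE 0.15), with 6 of all 11227 genes called lower. Pairs of equal number there had r of 0.0908 to 0.365, and 5 of 10 samples were most alike to their own number. Between cell types these were -0.131 to 0.0494 and 1 of 8. There the replicate block called 5 members higher and 1 lower, and 2407 and 2498 of all 11758 genes. With CD8 samples numbered 3 to 5 alone the interaction called 1. By Spearman correlation 3 and 4 of the 10 genes most like the family were shared. The cause was not tested, beyond that the subsets hold fewer samples. Of 32 ranks of members by TPM all 32 were the same in CPM per kilobase, which is also divided by length. Shares of the summed level differed when counts were not divided by length. In DP control samples that of *Gimap8* went from 9.25% to 19.3%, and in CD8 control samples that of *Gimap5* from 3.97% to 3.96%. Depth limits *Gimap7* most, with as few as 48 fragments in a DP sample.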
